A study of Mus musculus with 9 samples.

Results

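GABA, the main inhibitory transmitter of the inner retina, acts on ion channels and on a G protein-coupled receptor. GABA-A receptors are chloride channels of several subunits, usually alpha, beta and gamma, and the rho subunits form GABA channels of their own, long called GABA-C receptors, on the axon terminals of retinal bipolar cells. The GABA-B receptor is a slower, G protein-coupled receptor made of GABBR1, which binds GABA, and GABBR2, which couples to the G protein. The 7 genes described here encode the rho subunits Gabrr1 and Gabrr2, the alpha subunits Gabra2 and Gabra3, the beta subunit Gabrb2, and both GABA-B subunits, Gabbr1 and Gabbr2. They were taken by symbol from the 35397 genes of the deposited expression table, and all 7 were found and reached the mean of 1 FPKM (fragments mapped, scaled to transcript length and library size) required for testing, as did 14588 genes in all.

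The study sequenced RNA from retina of db/db mice (4 libraries, numbered 1, 3, 4 and 5) and wild-type mice (WT, 5 libraries, numbered 1 to 5). The db/db strain lacks a working leptin receptor throughout the body and becomes obese and diabetic. The labels give no age, sex or background strain, and leave unstated whether libraries are from different animals; the p-values therefore reflect library-to-library spread, which may be technical. Depth read back from the values ran from 36.6 to 46.1 M reads (db/db) and from 43.0 to 47.9 M reads (WT). For 6 rod genes the libraries summed to 10696–12263 FPKM (db/db) and 10326–11126 FPKM (WT). For 10 bipolar cell genes they summed to 327–362 FPKM (db/db) and 325–341 FPKM (WT). The libraries thus carried defining markers of retina. Library db/db 1 stood apart from the rest: its genes deviated from the WT mean with an SD of 0.55 on the log2 scale, against 0.20 to 0.28 in the other db/db libraries and 0.13 to 0.14 in WT. Results are therefore given with and without it. Of all genes tested, 34 (0.233%) passed the threshold upward in db/db and 39 downward; leaving out db/db 1 gave 688 and 852.

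None of the 7 subunit genes was called higher or lower in db/db (limma, Benjamini-Hochberg adjusted p under 0.05 over all genes tested), where 0.5% of all genes tested were called. The count at an unadjusted p under 0.05 was 1, Gabra2, against 19.3% of all genes tested. The values of db/db and WT overlapped in each of the 7 genes, while 11.6% of all genes tested had groups that did not overlap. The limma-voom fit on recovered reads also called 0 of them. The median log2 change of the 7 was -0.09, and 0.0035 over all genes tested. Without db/db 1 again none was called, where 10.6% of all genes were (4.9% with correction for GC content as well, again with none of the 7), and their median log2 change was -0.03 against -0.02 over all genes. In bulk retina, fewer cells of a type and less RNA per cell cannot be told apart.

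The rho subunit genes were the most abundant of the 7. They lie next to each other on chromosome 4 (mm10), Gabrr2 at 33062999 to 33095865 and Gabrr1 at 33132521 to 33163588, both on the plus strand with 36.7 kb between them. The 250 bases before the RefSeq start of each are shown because these neighbours stood at similar levels; those of Gabrr2 span chr4:33062862-33063111 and those of Gabrr1 chr4:33132306-33132555 (GRCm38.p6, plus strand, 5′ to 3′, CG dinucleotides in capitals).
Gabrr1: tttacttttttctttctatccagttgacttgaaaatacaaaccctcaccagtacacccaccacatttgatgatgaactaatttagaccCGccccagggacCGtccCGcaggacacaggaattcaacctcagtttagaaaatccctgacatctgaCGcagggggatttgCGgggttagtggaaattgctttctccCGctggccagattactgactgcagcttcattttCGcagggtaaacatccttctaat
Gabrr2: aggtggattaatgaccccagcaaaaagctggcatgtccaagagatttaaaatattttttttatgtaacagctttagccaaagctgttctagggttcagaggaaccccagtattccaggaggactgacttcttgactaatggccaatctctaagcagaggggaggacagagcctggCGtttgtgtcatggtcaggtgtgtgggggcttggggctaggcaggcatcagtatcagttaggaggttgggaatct
The gene positions above are from GENCODE, whose starts differ from those of RefSeq, so both windows reach into the genes as placed there. The Gabrr1 window held 7 CG dinucleotides and the Gabrr2 window 1, counting a CG once for both strands. The median over 27025 gene promoters of the same length was 6, and 91.7% of those promoters held at least 1.

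Gabrr1 had 51.9, 57.0, 59.0 and 59.1 FPKM in db/db 1, 3, 4 and 5, against 53.0, 53.2, 56.3, 53.5 and 54.4 FPKM in WT 1 to 5. Library db/db 1 was the lowest of all 9, and the other db/db libraries were the highest of all 9. Its mean was 56.7 ± 3.39 FPKM in db/db (SD, n = 4) and 54.1 ± 1.37 FPKM in WT (SD, n = 5), a log2 change of 0.07 (95% interval -0.07 to 0.20, limma adjusted p = 0.554). Without db/db 1 the log2 change was 0.11 (95% interval 0.02 to 0.19, limma adjusted p = 0.0964, unadjusted p = 0.0191), and Gabrr1 was the 1 gene of the 7 whose groups did not overlap, where 21.1% of all genes tested did not. With quantile normalization the sign of its fitted change turned (-0.04).

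Gabrr2 had 42.7, 39.1, 48.6 and 48.4 FPKM in db/db 1, 3, 4 and 5, against 45.0, 43.6, 49.9, 46.0 and 45.1 FPKM in WT 1 to 5. The groups overlapped, with db/db 3 lowest and WT 3 highest. The log2 change was -0.04 (95% interval -0.22 to 0.13, limma adjusted p = 0.786), and -0.02 without db/db 1. The ratio of Gabrr1 to Gabrr2 within a library stood at 1.46 in db/db 3 and 1.21 to 1.22 in the other db/db libraries, against 1.13 to 1.22 in WT. Gabrr1 stood above Gabrr2 in all 9 libraries.

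Among the alpha subunits, Gabra3 was the more abundant. It lies on the X chromosome (72432681 to 72656848). Gabra3 had 8.66, 11.0, 9.36 and 9.29 FPKM in db/db 1, 3, 4 and 5, against 11.0, 9.67, 9.53, 10.3 and 10.7 FPKM in WT 1 to 5. The highest db/db library, db/db 3, matched the highest WT library, and the other db/db libraries lay below every WT library. The log2 change was -0.09 (95% interval -0.26 to 0.08, limma adjusted p = 0.536), and -0.05 without db/db 1 (adjusted p = 0.682). With correction for GC content and db/db 1 left out, its sign turned (0.05).

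Gabra2, on chromosome 5 (70957597 to 71095849) beside Gabra4, Gabrb1 and Gabrg1, varied most of the 7 genes within WT. Gabra2 had 2.80, 2.03, 3.92 and 3.18 FPKM in db/db 1, 3, 4 and 5, against 3.40, 3.68, 4.76, 3.38 and 4.82 FPKM in WT 1 to 5. Only db/db 4 lay within the WT range, and the other db/db libraries lay below it. Its mean was 2.98 ± 0.787 FPKM in db/db (SD, n = 4) and 4.01 ± 0.724 FPKM in WT (SD, n = 5), a log2 change of -0.34 (95% interval -0.67 to -0.01, unadjusted p = 0.0464, limma adjusted p = 0.251). Without db/db 1 the log2 change was -0.32 (95% interval -0.69 to 0.04, limma adjusted p = 0.208). Adding a correction for GC content gave -0.13 (limma adjusted p = 0.713); the Gabra2 transcript has 38.4% GC, and 2.70% of tested genes have less. Gabra2 had a coefficient of variation of 26.4% among db/db and 18.1% among WT libraries, where the median gene had 17.2% among db/db and 6.65% among WT. Gabra3 exceeded Gabra2 in every library, by a ratio of 2.39 to 5.43 in db/db and 2.002 to 3.23 in WT.

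Gabrb2, a beta subunit gene on chromosome 11 (42419757 to 42629028), was the least abundant of the 7. It had 0.215, 2.32, 2.96 and 2.47 FPKM in db/db 1, 3, 4 and 5, against 2.95, 2.60, 2.61, 2.58 and 3.15 FPKM in WT 1 to 5. Library db/db 1 was at 0.0773 of the WT mean, while db/db 4 lay inside the WT range and db/db 3 and 5 just below it. With db/db 1 the log2 change was -0.47 (95% interval -1.14 to 0.21, limma adjusted p = 0.414), and without it -0.08 (95% interval -0.26 to 0.10, limma adjusted p = 0.544). Correction for GC content without db/db 1 turned the sign (0.02).

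**Figure D1:**
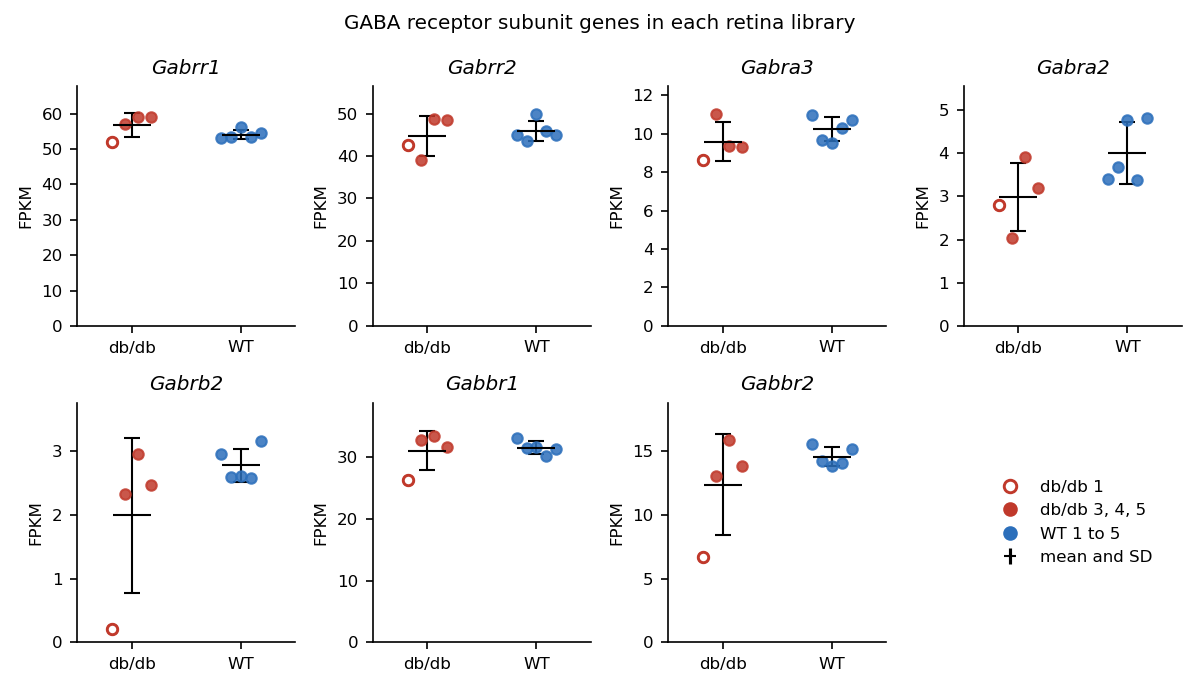
Expression in FPKM (vertical axes, from 0) of the 7 GABA receptor subunit genes in each db/db library (left, db/db 1 as an open symbol) and each WT library (right), with bars for the mean and SD. The groups overlap in every panel, and db/db 1 lies far below the other libraries for Gabrb2 (0.215 FPKM) and Gabbr2 (6.71 FPKM).

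The GABA-B subunit genes lie on different chromosomes, Gabbr1 on chromosome 17 (37045966 to 37075067) and Gabbr2 on chromosome 4 (46662305 to 46991873). Their upstream windows are shown because the proteins form a receptor only together while their mRNAs differed in level, most of all in db/db 1; the window of Gabbr1 spans chr17:37045716-37045965 (plus strand) and that of Gabbr2 chr4:46991715-46991964 (minus strand), written like those of the rho genes.
Gabbr1: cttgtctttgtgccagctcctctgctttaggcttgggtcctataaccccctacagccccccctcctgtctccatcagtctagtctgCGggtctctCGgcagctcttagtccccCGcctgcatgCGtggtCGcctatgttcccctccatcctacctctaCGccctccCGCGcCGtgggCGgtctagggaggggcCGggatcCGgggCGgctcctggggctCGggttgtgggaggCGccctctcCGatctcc
Gabbr2: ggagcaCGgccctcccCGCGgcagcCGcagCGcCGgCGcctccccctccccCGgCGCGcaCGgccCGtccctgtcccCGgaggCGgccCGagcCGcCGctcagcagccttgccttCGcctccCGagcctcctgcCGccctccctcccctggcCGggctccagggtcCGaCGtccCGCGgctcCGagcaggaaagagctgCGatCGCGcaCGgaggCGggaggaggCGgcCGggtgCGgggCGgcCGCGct
The Gabbr2 window held 37 CG dinucleotides and 80.8% GC, and 97.9% of gene promoters held fewer CG. The Gabbr1 window held 16 and had 66% GC, and 74.4% of promoters held fewer CG. The Gabbr2 window lies before the RefSeq start but reaches into the gene as placed by GENCODE. That of Gabbr1 does not.

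Gabbr1 had 26.3, 32.7, 33.4 and 31.7 FPKM in db/db 1, 3, 4 and 5, against 33.1, 31.4, 31.5, 30.2 and 31.3 FPKM in WT 1 to 5. Apart from db/db 1, which was lowest, the groups lay over each other. The log2 change was -0.03 (95% interval -0.20 to 0.14, limma adjusted p = 0.873) with all libraries and 0.05 (95% interval -0.04 to 0.14, limma adjusted p = 0.460) without db/db 1. Gabbr2 had 6.71, 13.1, 15.9 and 13.8 FPKM in db/db 1, 3, 4 and 5, against 15.6, 14.2, 13.8, 14.1 and 15.2 FPKM in WT 1 to 5. Library db/db 1 was at 0.460 of the WT mean, and db/db 4 was the highest of all 9. The log2 change of Gabbr2 was -0.28 (95% interval -0.72 to 0.16, limma adjusted p = 0.452), and -0.03 (95% interval -0.18 to 0.12, limma adjusted p = 0.769) without db/db 1.

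The ratio of the GABA-B mRNAs was highest in db/db 1. Gabbr1 over Gabbr2 was 3.92, 2.50, 2.10 and 2.29 in db/db 1, 3, 4 and 5, against 2.06 to 2.28 in WT. Only db/db 4 lay within the WT range, with db/db 5 just above it. Both subunits were thus at a ratio above 2 in all 9 libraries on the FPKM scale, which is per length of transcript.

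**Figure D2:**
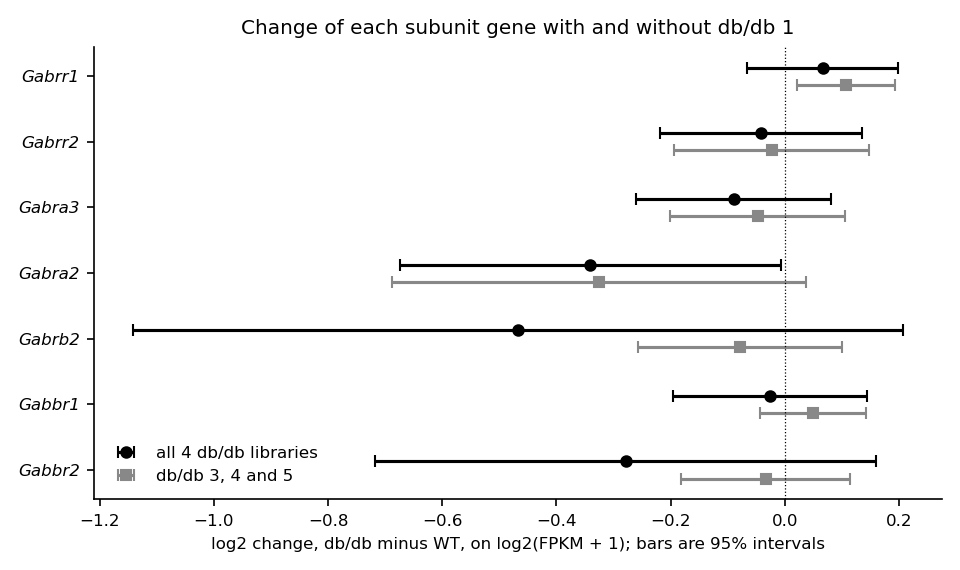
Log2 change of each subunit gene, db/db minus WT, on log2(FPKM + 1) (horizontal axis), with all 4 db/db libraries (circles) and with db/db 3, 4 and 5 only (squares); bars are 95% intervals. The intervals of Gabrb2 and Gabbr2 narrow when db/db 1 is left out, to -0.26 to 0.10 and -0.18 to 0.12.

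By mean level over the 9 libraries the order was Gabrr1, Gabrr2, Gabbr1, Gabbr2, Gabra3, Gabra2 and Gabrb2. From Gabrr1 to Gabbr2 each gene exceeded the next in 9 of 9 libraries and the ranges of neighbours did not overlap. Gabbr2 exceeded Gabra3 in 8 libraries, the exception being db/db 1 with 6.71 against 8.66 FPKM. Gabra2 exceeded Gabrb2 in 8 libraries, the exception being db/db 3 with 2.03 against 2.32 FPKM, so the order of these neighbours is not beyond their spread. Within WT the coefficient of variation was 2.53% for Gabrr1, 3.28% for Gabbr1 and between 5.16% and 9.30% for the others except Gabra2.

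All 7 genes were lower in db/db 1 than in every WT library, where 36.0% of all genes tested were, and 5 of 7 were lower there than in any other library, where 30.1% of all genes were. The deviation of Gabrb2 in db/db 1 from the WT mean was -1.63 on the log2 scale, and 72 of 14588 genes lay further below. That of Gabbr2 was -1.01, and 380 genes lay further below. Those of Gabra2, Gabbr1, Gabra3, Gabrr2 and Gabrr1 were -0.39, -0.25, -0.22, -0.10 and -0.06, and 17.8%, 26.0%, 28.1%, 36.3% and 39.8% of genes lay further below. In recovered reads, Gabrb2 had 63 in db/db 1 (exact Poisson 95% interval 48.4 to 80.6, counting error only), 574 to 774 in the other db/db libraries and 710 to 912 in WT. The shortfall was thus larger than counting error.

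Transcript length moved with the deviation of db/db 1. Across 14490 genes Spearman's rho between the deviation from the WT mean and the length of the longest annotated transcript was -0.54 in db/db 1, against -0.13 to 0.18 in the other db/db libraries and -0.18 to 0.24 in WT; genes are not independent points. The median deviation in db/db 1 was 0.46 for genes under 2 kb and -0.49 for genes over 8 kb. The longest transcripts of Gabrr2 and Gabrr1 are 1.93 and 2.29 kb, those of Gabra3 and Gabrb2 3.66 and 3.99 kb, and those of Gabbr1, Gabbr2 and Gabra2 5.25, 5.75 and 5.85 kb. Genes of 2 to 4 kb had a median deviation of 0.15 in db/db 1, and those of 4 to 6 kb one of -0.16. Cell type markers moved both ways in db/db 1. Of 9 amacrine cell genes, 2 were above every WT library and 6 below. All 9 summed to 350 FPKM in db/db 1. That sum was 266 to 270 FPKM in the other db/db libraries and 263 to 281 FPKM in WT. Without Calb2, the most abundant, the direction turned, with a sum of 78.4 FPKM in db/db 1. This sum was 108 to 114 FPKM in the other db/db libraries and 109 to 115 FPKM in WT. Of 10 bipolar cell genes, 4 were above every WT library in db/db 1 and 5 below. Of 8 ganglion cell genes, 5 were above and 1 below, and of 5 pigment epithelium genes, 4 were above and 1 below. The 8 ganglion cell genes summed to 425 FPKM there, against 301 to 322 FPKM in the other db/db libraries and 274 to 312 FPKM in WT. The 5 pigment epithelium genes summed to 47.9 FPKM there, against 14.9 to 27.4 FPKM in the other db/db libraries and 19.4 to 25.6 FPKM in WT. The part of length or cell make-up in the low values of db/db 1 was not tested.

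**Figure D3:**
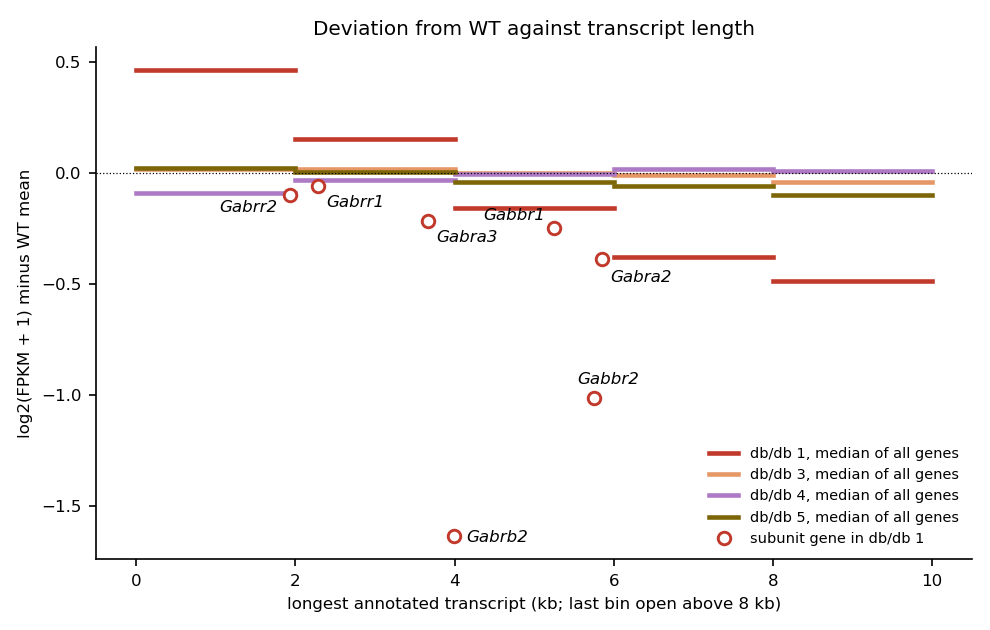
Deviation from the WT mean of log2(FPKM + 1) (vertical axis) against the longest annotated transcript in kb (horizontal axis); lines are medians of all genes tested per length bin in each db/db library, and open circles are the 7 subunit genes in db/db 1. The db/db 1 line falls from 0.46 to -0.49 with length, and the lowest circles are Gabrb2 (-1.63) and Gabbr2 (-1.01).

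The genes with the most like profile to each subunit were found by the root mean square difference of their deviations from the WT mean over the 9 libraries, among 7488 protein-coding genes averaging 5 FPKM or more. For Gabrb2 these were Atp2b3, a plasma membrane calcium pump gene (0.07 on the log2 scale), and Ankhd1 (0.08), against a median of 0.60 over all those genes; both had deviations in db/db 1 close to that of Gabrb2, at -1.74 and -1.58. For Gabbr2 they were Map1b, a microtubule-associated protein gene (0.04), and Shank2, a postsynaptic scaffold gene (0.05), at -1.04 and -1.10 in db/db 1. As db/db 1 was among the 9 libraries used for the match, closeness there follows from the selection. For Gabbr1 the most like genes were Ptpn11 and Fbxw11 (0.03 each). For Gabrr1 they were Pip5k1a and Ncoa5 (0.03 each), and for Gabrr2 Spon1 and Plbd2 (0.06 each). For Gabra3 they were Miga1 and Ggcx (0.04 each), and for Gabra2 Hr and Pros1 (0.17 and 0.18).

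Summed over all 19 ionotropic GABA receptor subunit genes, expression lay between 162 and 185 FPKM across db/db libraries, and between 186 and 197 FPKM across WT libraries. The rho genes made up 58.5% to 63.2% of that sum in db/db and 55.4% to 57.8% in WT, and the ranges did not overlap. The beta genes made up 8.67% to 10.6% in db/db and 11.6% to 12.4% in WT. Alpha genes made up 14.8% to 17.1% in db/db and 17.4% to 19.1% in WT. Gamma genes made up 7.67% to 9.68% in db/db and 9.21% to 9.76% in WT, and these ranges overlapped. These shares sum to a whole, so they cannot move independently, and they are given as a description with no test. Within the alpha genes Gabra3 held 31.9% to 36.5% in db/db and 27.2% to 31.7% in WT, while Gabra2 held 6.72% to 13.4% in db/db and 9.36% to 13.6% in WT. Within the beta genes Gabrb2 held 1.53% in db/db 1 and 12.4% to 15.5% in the other db/db libraries, against 11.2% to 13.2% in WT.

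**Figure D4:**
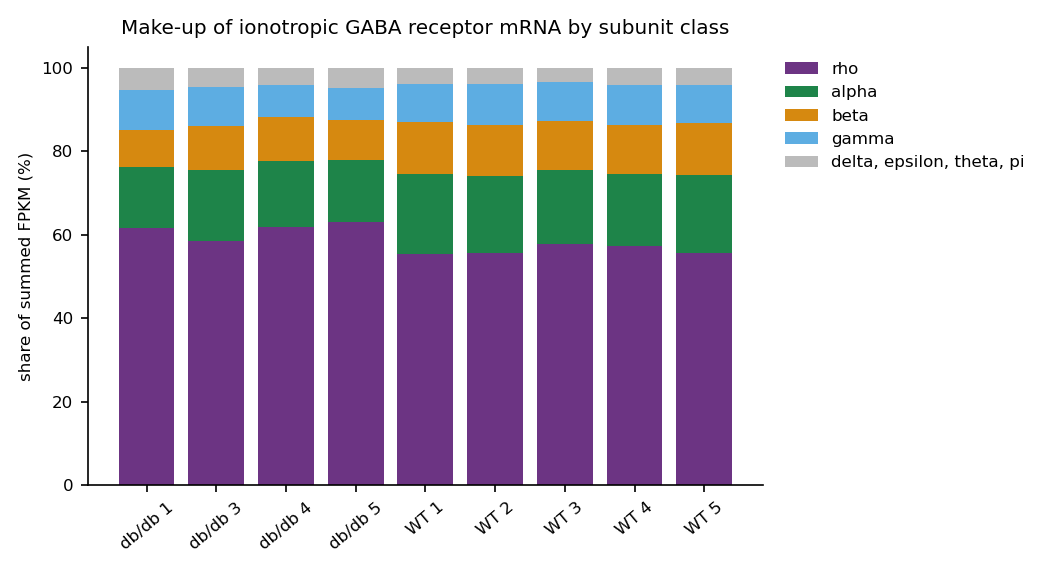
Share of the summed FPKM of 19 ionotropic GABA receptor subunit genes (vertical axis, %) held by each subunit class in each db/db library (left) and each WT library (right). The rho share is 58.5% or more in every db/db library and 57.8% or less in every WT library.

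Of the 14 other GABA-A and rho subunit genes, 7 reached the filter, of which 1 fell and 0 rose over all genes tested, where 0.267% were called lower; their median log2 change was -0.23. Without db/db 1 none rose and 3 fell, where 5.84% were called lower, and their median was -0.24. Adding the GC correction to that fit left 2 that fell, where 341 of all 14588 genes tested were called lower, and the median was -0.05.

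The deviation of all genes correlated with GC content at 0.18 to 0.50 (Pearson's r over 14490 genes) in the db/db libraries and -0.12 to 0.13 in WT. Gabrb1, at 0.806 ± 0.103 FPKM in db/db (SD, n = 4) and 1.18 ± 0.0728 FPKM in WT (SD, n = 5), had a log2 change of -0.27 (limma adjusted p = 0.0866). Without db/db 1 it was -0.24 (limma adjusted p = 0.0520), and adding the GC correction gave -0.10 (limma adjusted p = 0.413). Gabrb1 shares 46 exon bases with Gabra4 on the opposite strand, and reads there cannot be told apart without strand. With all libraries Gabrd, the delta subunit gene, had a log2 change of 0.17 (adjusted p = 0.197). Gabrr3, the third rho gene, had -0.18 (adjusted p = 0.262), and Gabra4 -0.07 (adjusted p = 0.592). Without db/db 1 Gabrd, Gabrr3 and Gabra4 had 0.14, -0.10 and -0.03 (limma adjusted p = 0.134, 0.208 and 0.779). Adding the GC correction gave 0.07, 0.05 and 0.09 (limma adjusted p = 0.415, 0.531 and 0.443). The 7 subunit genes under the filter were Gabrg3 (mean of 0.964 FPKM over the 9 libraries), Gabra5 (0.766), Gabrg1 (0.745), Gabrq (0.275), Gabre (0.146), Gabra6 (0.0020) and Gabrp (0.0015).

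**Figure D5:**
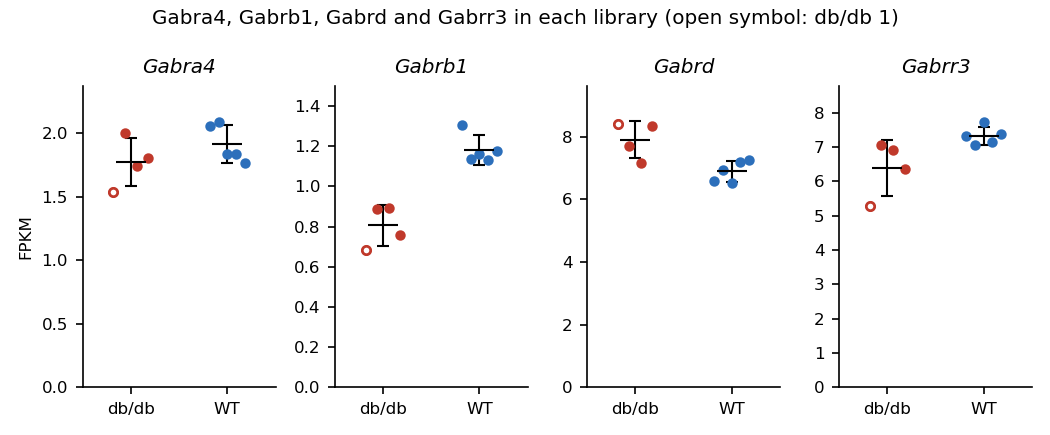
Expression in FPKM (vertical axes, from 0) of Gabra4, Gabrb1, Gabrd and Gabrr3 in each db/db library (left, db/db 1 as an open symbol) and each WT library (right), with bars for the mean and SD. The db/db libraries lie below all WT libraries for Gabrb1, with means of 0.806 FPKM in db/db and 1.18 FPKM in WT. Of all genes tested, 11.6% had groups that did not overlap.

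Of 9 genes of GABA synthesis, vesicle loading, uptake and breakdown none passed with all libraries; Gad2 and Aldh5a1 had an unadjusted p under 0.05, as 19.3% of all genes tested did, and the voom fit called 0 of the 49 tested genes of the 5 pathway lists. Without db/db 1 the list had 1 gene higher and 1 lower, where 4.72% of all genes were called higher and 5.84% lower. The lower gene was Gad2, a GABA-synthesizing enzyme gene, with 8.39, 12.04, 10.9 and 10.6 FPKM in db/db 1, 3, 4 and 5, against 12.6, 12.6, 13.01, 12.8 and 13.5 FPKM in WT 1 to 5. Its log2 change was -0.29 (limma adjusted p = 0.134) with all libraries, -0.19 (limma adjusted p = 0.0395) without db/db 1, and adding the GC correction gave an adjusted p of 0.0996. Gad1, the other gene for this synthesis, was the more abundant, averaging 42.5 FPKM over the 9 libraries against 11.8 FPKM for Gad2. The log2 change of Gad1 was -0.08 (limma adjusted p = 0.467) with all libraries and -0.04 (limma adjusted p = 0.526) without db/db 1. Adding the GC correction gave -0.0015 for Gad1. Amacrine cells make most retinal GABA. Of 9 of their markers, 6 had a negative log2 change (median -0.10), as did 7198 of 14588 genes tested (median 0.0035). None passed with all libraries. Without db/db 1 Tfap2b, a transcription factor gene of these cells, passed as lower (limma adjusted p = 0.0327), as did 5.84% of all genes. Adding the GC correction gave Tfap2b an adjusted p of 0.0661. Without Calb2 the amacrine markers summed to 78.4 FPKM in db/db 1 and 108 to 114 FPKM in the other db/db libraries. They summed to 109 to 115 FPKM in WT. With Calb2 the sum was 350 FPKM in db/db 1 and 266 to 270 FPKM in the other db/db libraries. In WT it was 263 to 281 FPKM. The part of amacrine cells in the Gad2 values was not tested.

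Of 16 genes of GABA-A receptor clustering and trafficking none passed with all libraries, with a median log2 change of -0.06, and 1 had an unadjusted p under 0.05 (19.3% of all genes). Without db/db 1 none was higher and 1 lower, where 4.72% of all genes tested were called higher and 5.84% lower. Of 12 tested GABA-B partner and effector genes none passed in limma with or without db/db 1, and 4 had an unadjusted p under 0.05 with all libraries, where 19.3% of all genes did. The smallest p-values were those of Gnai2, an inhibitory G protein alpha subunit gene, at 44.4 ± 3.36 FPKM in db/db (SD, n = 4) and 38.3 ± 2.06 FPKM in WT (SD, n = 5) with limma adjusted p = 0.155, and of Kctd8, an auxiliary GABA-B subunit gene, at 6.98 ± 0.492 FPKM in db/db (SD, n = 4) and 6.06 ± 0.303 FPKM in WT (SD, n = 5) with limma adjusted p = 0.178. Kctd8 passed with GC correction and db/db 1 left out (log2 change 0.21, limma adjusted p = 0.0494), where 4.9% of all genes tested were called.

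Of 5 genes that set the chloride gradient none passed with all libraries in limma. At an unadjusted p under 0.05 there were 0, against 19.3% of all genes tested. Without db/db 1 Slc12a5 was called higher, where 4.72% of all genes tested were. Slc12a5 encodes KCC2, the neuronal potassium chloride exporter on which the inhibitory effect of GABA-A receptors depends. It had 120, 173, 187 and 186 FPKM in db/db 1, 3, 4 and 5, against 153, 158, 160, 152 and 157 FPKM in WT 1 to 5. Library db/db 1 was the lowest of all and the other db/db libraries the highest. The log2 change was 0.07 (limma adjusted p = 0.768) with db/db 1 and 0.22 (limma adjusted p = 0.0210) without it, and adding the GC correction gave an adjusted p of 0.178. Its sign turned in 2 of 23 alternative settings, down to -0.07.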

How the data were processed

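Per the labels, retinal RNA came from a Qiagen kit, with 1.3 ug used per SMARTER library. The authors deposited 1 table of FPKM values for 35397 genes in 9 libraries. Per the submitters' processing notes the build was mm10. The aligner, the counter, the annotation and the strand of counting were not given in the sources used here. Column names (Control or DR, numbered) were matched by number to WT and db/db samples, which is inferred from the names. Sample titles gave the groups. Symbols, positions, lengths and GC content were read from GENCODE M21 (same assembly; 34499 identifiers matched). Promoter sequences came from RefSeq (GRCm38.p6), which held all 7 genes. For genes with several RefSeq starts the first listed was used. No other annotated gene shared exon bases with the 7 genes.

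Within a library, FPKM times exon length took multiples of 1 constant: 99.0% to 99.1% of values up to 30 reads were whole within 0.1 read, which gave the depth. Of these 61.6% to 64.8% were even, so a read need not be a separate fragment. Values were tested as log2(FPKM + 1), which understates changes of low genes, for the 14588 genes averaging 1 FPKM or more. The test was limma 3.58.1 under R 4.3.3 (eBayes with a trend, no covariate), with Benjamini-Hochberg adjustment across the tested genes and a threshold of 0.05. Voom used library sizes from median-of-ratios scaling. GC correction subtracted, per library, the median deviation in 20 bins of transcript GC content. On simulated data with 200 of 14588 genes changed, limma found 55% of log2 changes of 0.5 and 83% of changes of 1 with all 9 libraries (7 false calls). Leaving out db/db 1 raised this to 72% and 93% (5 false calls). The 7 genes, the pathway and marker lists, the naming rule and the alternatives were chosen with earlier results of these data known. The rule named from each pathway list up to 4 genes of smallest p past the threshold with or without db/db 1, else the 2 with the smallest p, and the 2 genes most like each subunit in profile. Some genes that the rule names are not reported here. Gabrb1, Gabrd, Gabrr3, Gabra4, Gad1, Aldh5a1, Calb2 and Tfap2b were named after their values were seen. Plots used matplotlib 3.10.9 (Python 3.11.15).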

Additional observations from a re-analysis of the deposited data

Results flagged for a closer look

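Dixon's ratio, with limits of 0.829 for 4 libraries and 0.71 for 5, marked an isolated library in 3 gene and group combinations. The list held 36 combinations, but the db/db values of Gabra6 and Gabrp were all 0 and gave no ratio. The chance rate of about 1 in 20 therefore cannot be set against this count. None of the 3 was in the 7 subunit genes described above. Gabra5, an alpha subunit gene under the filter, was highest in WT 1 at 2.56 FPKM, while the other WT libraries had at most 0.579 FPKM; 4 oligodendrocyte markers summed to 38.1 FPKM in WT 1 and 9.65 to 19.9 FPKM in the other WT libraries, and their part in the Gabra5 value was not tested. Gabra6 had 0.0176 FPKM in WT 3 and Gabrp 0.0133 FPKM in WT 4, and the other WT libraries were listed at 0. A single value beside zeros gives a ratio of 1 at any size, so these flags carry no information on its size.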

How the results depend on the processing

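The count of the 7 subunit genes called was 0 in all 23 alternatives. Their log2 changes ran from -0.48 to -0.13 (Gabra2), -0.15 to 0.05 (Gabra3), -1.09 to 0.02 (Gabrb2), -0.04 to 0.11 (Gabrr1), -0.15 to 0.02 (Gabrr2), -0.09 to 0.05 (Gabbr1) and -0.41 to -0.03 (Gabbr2). The smallest adjusted p among them was 0.0964, for Gabrr1. The filter at a mean of 5 FPKM gave no value for Gabra2 and Gabrb2. Of the 49 pathway genes 1 was called with all libraries. The count was 0 without a filter, with scaling to equal sums or by median-of-ratios, the replicate block, GC correction or limma-voom on recovered reads, 7 with array weights, 4 without db/db 1 and db/db 4, 4 with db/db 1 left out after GC correction, and 0 to 7 when 1 library was left out, the 7 being without db/db 1. Of all genes 73 were called. The count was 9 without a filter, 30 at a mean of 5 FPKM, 36 with scaling to equal sums and 1206 with array weights. It was 2 with the replicate block, 6 with GC correction and 543 without db/db 1 and db/db 4. With db/db 1 left out before GC correction it was 715, and when 1 library was left out 4 to 1540. Except for the smaller sets of genes or libraries, the cause was not tested. The replicate numbers are shared between the groups but do not pair the libraries. Same-numbered libraries correlated at 0.04, 0.05, -0.18 and 0.13 in their deviations from the group means. Precision is limited. On data simulated with the spread of these libraries, 55% of log2 changes of 0.5 were found with all 9 libraries and 72% without db/db 1. The part of the number of libraries was not tested.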
